A study of Saccharomyces cerevisiae with 6 samples.

Results

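Yeast carries several proteins as a pair of isoforms, one made mainly in air and one made mainly when oxygen or heme runs short. Such genes were taken as a group of 10, chosen by function and not by a measured value: CYC1 and CYC7 (cytochrome c), COX5A and COX5B (subunit V of cytochrome c oxidase), HYP2 and ANB1 (the translation factor eIF5A), PET9, AAC1 and AAC3 (the ADP/ATP carriers of the mitochondrial inner membrane), and ROX1, whose product represses hypoxic genes. Their standard names were matched to systematic ORF names through the RefSeq R64 annotation, and all 10 were found among the 6377 rows of the array table, each with a value on all 6 arrays.

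Every array set dox-treated against untreated cells of a single haploid strain, TETp-HSC82 hsp82Δ arg4Δ lys5Δ car2Δ::URA3 in the R1158 background, so both sides share the promoter swap and all 4 deletions. The treated cells had 5 μg/ml dox for 11 h, which shuts off the TET promoter of HSC82, the only Hsp90 gene left, and the untreated cells had none. There were 2 cultures, with isotopically light cells treated in culture 1 and heavy cells in culture 2, and 3 RNA isolations per culture went onto 3 arrays. These 3 arrays are technical, so the culture is the replicate. Culture, isotope label and any difference in day of growth cannot be told apart. The dox-treated side had the same dye on all arrays, so a dye effect on a gene and an effect of the treatment cannot be told apart either, and dox-treated cells with normal Hsp90 were not analysed here. Each value is a log2 ratio, dox-treated over untreated, written below in array order for each culture. They are changes within an array and carry no signal level, so the abundance of an isoform relative to its partner is not known. HSC82 was far below 0 on all 6 arrays, with −5.99 on average. The probe of HSP82, a gene that these cells lack, was also far below 0 on every array, with −6.30 on average. In culture 1, all arrays but the third had it at −6.64, the lowest value in the table, so that its ratio there and its average are only bounds.

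In yeast, oxygen acts on these genes through heme, whose synthesis needs oxygen. Heme activates Hap1, a transcription factor that is held in complexes with chaperones including Hsp90, and Hap1 together with the CCAAT-binding complex Hap2/3/4/5 turns on respiratory genes and ROX1. Rox1 then represses hypoxic genes with the help of Mot3 and the corepressor Tup1–Cyc8. In S288C, the background of this strain, HAP1 carries a Ty1 insertion that weakens it. PET9 is also known as AAC2, HYP2 as TIF51A, and ANB1 as TIF51B. ANB1 and CYC1 are direct neighbors on chromosome X, and CYC7 and HYP2 lie on chromosome V with 4 genes between them.

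By limma over the 2 culture means, with the criterion in the methods of the study (above 1.5-fold, with unadjusted p under 0.05), COX5A rose and HYP2 and ANB1 fell in low-Hsp90 cells, while the other 7 genes did not meet the criterion. Over all 6290 genes tested, 10.5% met it, 5.74% higher and 4.74% lower. The changed genes did not follow the division into aerobic and hypoxic forms. COX5A and HYP2 are both aerobic forms and moved in opposite directions, and HYP2 fell together with its hypoxic partner. HYP2 and ANB1 are near-identical, and whether their probes read separate mRNAs was not tested, so they may not be separate changes. All 3 also passed after Benjamini-Hochberg adjustment over all genes, as did 5.36% of genes with the same fold threshold, 3.04% higher and 2.32% lower. That second call did not hold throughout. With each array centered on its median, the limma adjusted p of the 3 genes was between 0.0933 and 0.104, and without the first or the third array of culture 1, or the first or the second array of culture 2, it was between 0.0535 and 0.071. By fold alone, 5 of the 10 were beyond 1.5-fold in culture 1 (17.1% of all genes) and 4 in culture 2 (8.35%). The sign was the same on all 6 arrays for COX5A, COX5B, HYP2, ANB1 and AAC3, 5 of 10 against 47.0% of all genes with complete values.

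**Figure D1:**
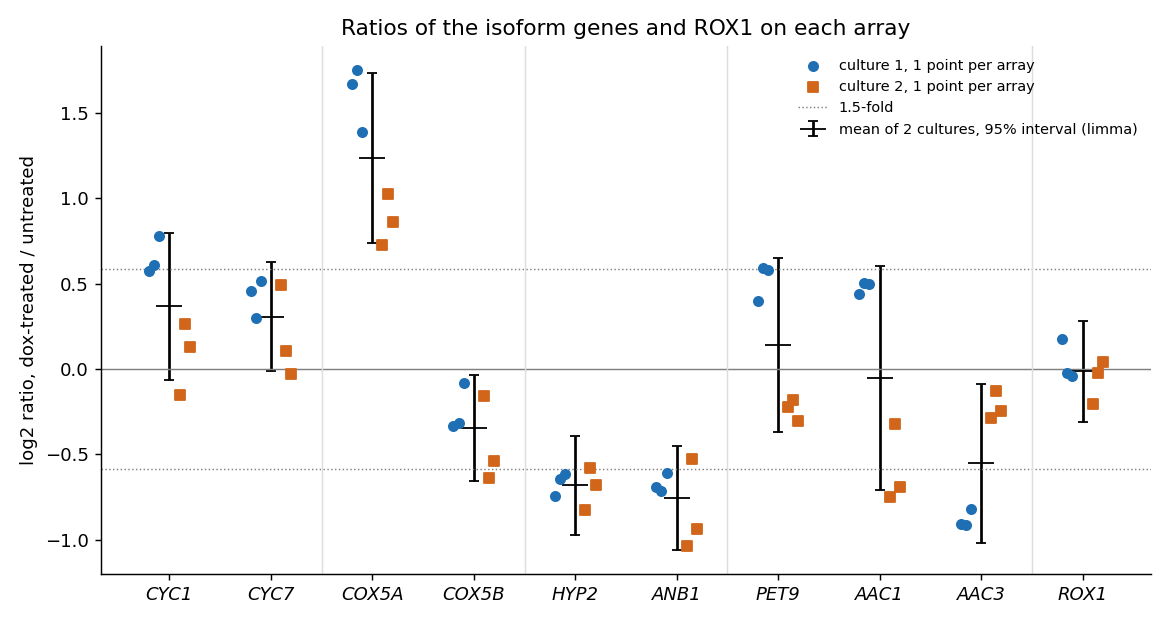
Log2 ratio of dox-treated over untreated cells (vertical axis) for the 10 genes, with 1 point per array (circles, culture 1; squares, culture 2), and the mean of the 2 cultures with its 95% interval from limma in black. COX5A lies above the upper 1.5-fold line on all 6 arrays, HYP2 and ANB1 lie near or below the lower line, and PET9 and AAC1 lie above 0 in culture 1 and below 0 in culture 2.

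Subunit V of cytochrome c oxidase gave the widest separation between partners in both cultures together. The 2 forms can replace each other in the enzyme, COX5A being the form of aerobic cells and COX5B that of hypoxic cells, with a faster turnover. COX5A had log2 ratios of 1.67, 1.75 and 1.39 in culture 1 and 0.73, 1.03 and 0.86 in culture 2. It was higher on 6 of 6 arrays, without overlap between the cultures. Its mean was 1.24, or 2.36-fold (standard error 0.20, 95% interval 0.74 to 1.73, adjusted p = 0.0381 from limma). COX5B had −0.34, −0.31 and −0.081 in culture 1 and −0.16, −0.64 and −0.54 in culture 2. All 6 values were below 0, and the cultures overlapped. The COX5B mean of −0.34 (95% interval −0.66 to −0.033) stayed short of 1.5-fold, with an unadjusted limma p of 0.036 and an adjusted p of 0.146.

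Taken as a difference within each array, COX5A stood above COX5B by 2.00, 2.07 and 1.47 in culture 1 and by 0.88, 1.66 and 1.40 in culture 2. The culture means of this difference were 1.85 and 1.31, so the ratio of COX5A to COX5B mRNA was 2.99-fold higher in dox-treated than in untreated cells on average, and higher on 6 of 6 arrays. With 2 cultures, the exact two-sided sign permutation test cannot give a p below 0.5 for any pair, and it gave 0.5 here. The other nuclear-encoded subunits of the oxidase, a list of 7, gave a yardstick for both forms. Of these, 6 met the criterion, all higher, against 5.74% of all genes tested. COX12 (mean log2 ratio 0.58, adjusted p = 0.149 from limma) fell short of the fold. The culture means of the 7 ran from 0.99 to 1.55 in culture 1 and from 0.16 to 0.57 in culture 2. COX5A exceeded every one of the 7 on 5 of 6 arrays, and COX5B lay below every one of them on all 6. All 7 were below 0.05 before and none after adjustment over all genes (limma), 3 of them met the criterion with centered arrays, and by fold alone none reached 1.5-fold in culture 2.

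The eIF5A genes moved together. eIF5A is the one protein known to carry hypusine, a modified lysine, and it helps ribosomes through difficult peptide sequences. HYP2, the form of aerobic cells, had log2 ratios of −0.74, −0.64 and −0.62 in culture 1 and −0.83, −0.58 and −0.68 in culture 2. ANB1, the Rox1-repressed form, had −0.69, −0.72 and −0.61 in culture 1 and −1.04, −0.53 and −0.94 in culture 2. Both were lower on 6 of 6 arrays, and the cultures overlapped for each. The mean of HYP2 was −0.68 (1.60-fold lower, standard error 0.12, 95% interval −0.97 to −0.39, adjusted p = 0.0402 from limma). That of ANB1 was −0.75 (1.69-fold lower, standard error 0.12, 95% interval −1.06 to −0.45, adjusted p = 0.0384). HYP2 differed from ANB1 by 0.0043 in culture 1 and 0.14 in culture 2, with array values from −0.053 to 0.26 and 3 of 6 arrays above 0. Its mean of 0.071 was below the SD of 0.095 between the cultures.

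The 2 eIF5A genes are of equal length (474 bases each in R64) and near-identical in sequence, and the probe sequences were not analysed here. Whether each probe reads only its own mRNA was not tested, and the probe of the deleted HSP82, above, gave low ratios beside those of its paralog HSC82. The genes of the group that lie near the pair on the chromosomes had other values. CYC1, the direct neighbor of ANB1, had culture means of 0.65 and 0.079, and CYC7 near HYP2 had 0.42 and 0.19. Hypusine is made from lysine by DYS1 (deoxyhypusine synthase) and LIA1 (deoxyhypusine hydroxylase). LIA1 fell, with culture means of −0.86 and −0.44 and a mean of −0.65 (adjusted p = 0.0656 from limma). DYS1 had −0.63 and −0.20 and did not meet the criterion (mean −0.41).

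Neither cytochrome c gene met the criterion. Cytochrome c carries electrons to the oxidase, and CYC1 encodes the main form in air while CYC7 encodes a form that gains in share when oxygen is low. CYC1 had log2 ratios of 0.57, 0.61 and 0.78 in culture 1 and −0.15, 0.26 and 0.13 in culture 2, so that the cultures did not overlap. CYC7 had 0.46, 0.30 and 0.51 in culture 1 and 0.49, 0.10 and −0.027 in culture 2, which overlapped. The mean was 0.37 for CYC1 (95% interval −0.063 to 0.80, adjusted p = 0.22 from limma) and 0.31 for CYC7 (95% interval −0.013 to 0.62, adjusted p = 0.182). Each gene was above 0 on 5 of 6 arrays.

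CYC1 differed from CYC7 by 0.23 in culture 1 and by −0.11 in culture 2, on average by 0.061 against an SD of 0.24 between cultures. On 5 of 6 arrays it lay between 0.11 and 0.31, and on the first array of culture 2 it was −0.64. That array held both the lowest value of CYC1 and the second-highest value of CYC7. CYC3, which attaches heme to cytochrome c, had culture means of −0.55 and −0.36 and missed the fold threshold (mean −0.46, adjusted p = 0.0856 from limma). CYC2 (0.052 and 0.32), which also acts in cytochrome c maturation, and CYT2 (0.035 and 0.085), the heme lyase of cytochrome c1, did not meet the criterion.

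**Figure D2:**
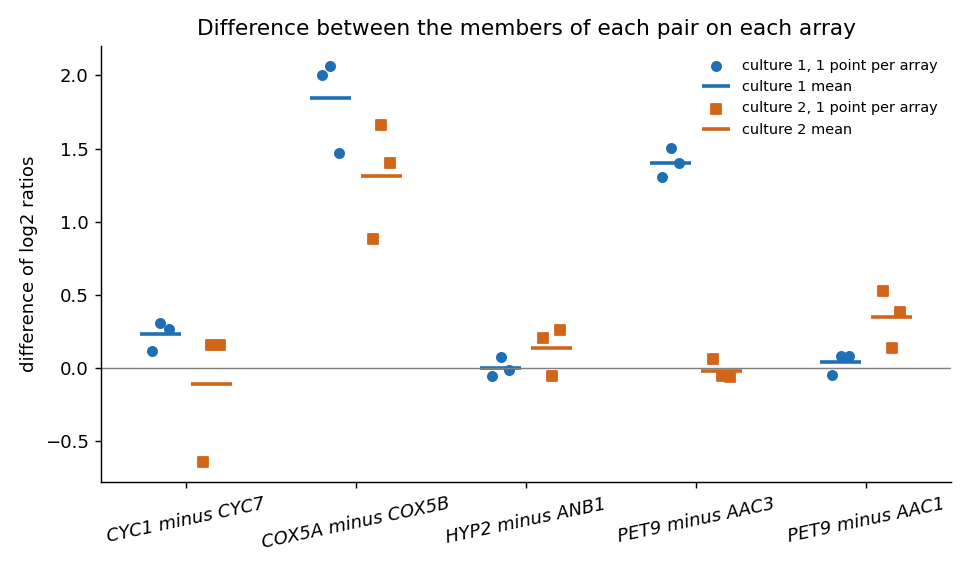
Difference of the log2 ratios of 2 genes on the same array (vertical axis), for the 4 aerobic and hypoxic pairs and for PET9 and AAC1, with 1 point per array (circles, culture 1; squares, culture 2) and bars at the culture means. COX5A exceeds COX5B on all 6 arrays, HYP2 and ANB1 differ by at most 0.26, and PET9 exceeds AAC3 by 1.40 in culture 1 against −0.016 in culture 2.

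All 3 ADP/ATP carriers had ratios that differed between the cultures (tested below). PET9 encodes the main carrier, which exchanges ATP for ADP across the inner membrane, AAC1 a minor carrier of aerobic cells and AAC3 the hypoxic, Rox1-repressed one. PET9 had log2 ratios of 0.40, 0.59 and 0.58 in culture 1 and −0.23, −0.18 and −0.31 in culture 2. AAC1 had 0.44, 0.51 and 0.50 in culture 1 and −0.75, −0.32 and −0.69 in culture 2. Both were above 0 on all arrays of culture 1 and below 0 on all arrays of culture 2. AAC3 went the other way, with −0.91, −0.91 and −0.82 in culture 1 and −0.29, −0.13 and −0.25 in culture 2. It was below 0 on 6 of 6 arrays and further below in culture 1.

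None of the 3 carriers met the criterion over both cultures. The means were 0.14 for PET9 (95% interval −0.37 to 0.65), −0.053 for AAC1 (95% interval −0.71 to 0.60) and −0.55 for AAC3 (95% interval −1.02 to −0.086), with limma adjusted p of 0.674, 0.913 and 0.129. For AAC3 the unadjusted limma p was 0.0282 and the fall short of the fold threshold was small (1.47-fold lower). PET9 exceeded AAC3 by 1.30, 1.504 and 1.40 in culture 1, a 2.64-fold higher ratio of PET9 to AAC3 mRNA in dox-treated cells, and by 0.063, −0.050 and −0.061 in culture 2. The mean of this pair, 0.69, therefore stands for neither culture. PET9 exceeded AAC1 by 0.039 in culture 1 and by 0.35 in culture 2.

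The cultures were compared directly by limma, 3 technical arrays on either side, a test of these 2 cultures and of nothing wider. A difference was called at an adjusted p below 0.05 and more than 1.5-fold, and 7.35% of the 6241 genes with enough values met this. Split by direction, 4.60% stood higher in culture 1 and 2.76% stood lower. From the group of 10, 4 genes met it, 3 of them higher. AAC1 was higher in culture 1 by 1.07 (95% interval 0.80 to 1.34, limma adjusted p = 0.000573), PET9 by 0.76 (0.55 to 0.97, adjusted p = 0.000883) and COX5A by 0.73 (0.46 to 1.01, adjusted p = 0.00389). AAC3 was lower in culture 1, with a difference of −0.66 (−0.86 to −0.46, adjusted p = 0.0013). Only PET9 and AAC1 met this criterion after the arrays were scaled to a common spread or quantile normalized. CYC1 passed the adjusted p (0.0112 from limma) but not the fold, with a difference of 0.57. The other 5 genes had limma adjusted p between 0.245 and 0.855. For HYP2, the difference of 0.029 had a 95% interval of −0.19 to 0.25.

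The 3 arrays of one culture did not overlap those of the other for 5 of the 10 genes, against 42.3% of all genes with complete values, a share like the background. The mean of culture 1 was above that of culture 2 for 9 of the 10 (AAC3 was the exception), against 43.6% of all genes. Culture means of opposite sign were found for PET9, AAC1 and ROX1, 3 of 10 against 25.9%. For the pair difference of PET9 and AAC3, the exact two-sided permutation test over the technical arrays gave p = 0.1, the smallest that 3 against 3 allow, and so it did for PET9 and AAC1. For the pairs of CYC, COX5 and eIF5A genes it gave 0.3, 0.2 and 0.4. These 5 values were not adjusted, since the smallest possible p is above 0.05.

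**Figure D3:**
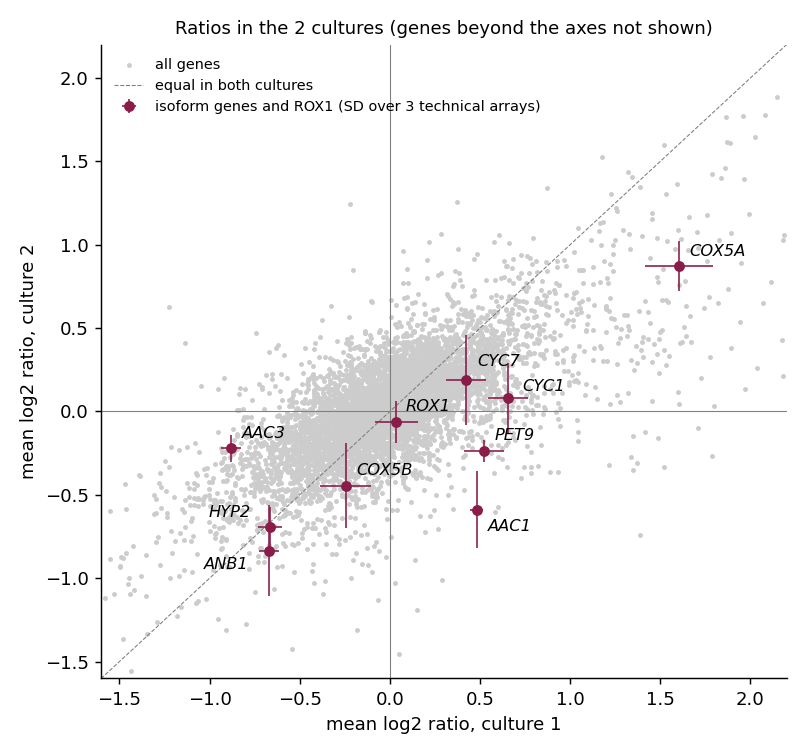
Mean log2 ratio of dox-treated over untreated cells in culture 1 (horizontal axis) and in culture 2 (vertical axis), with all genes in gray and the 10 genes in red, with bars for the SD over the 3 technical arrays. HYP2 and ANB1 lie near the line of equal values, COX5A (1.60 and 0.87) and CYC1 lie toward culture 1, PET9 and AAC1 lie at positive values in culture 1 and negative values in culture 2, and AAC3 (−0.88 and −0.22) is further below 0 in culture 1.

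The repressor ROX1 itself stayed near 0. Its log2 ratios were 0.18, −0.025 and −0.041 in culture 1 and −0.20, −0.022 and 0.040 in culture 2, with 2 arrays above 0 and 4 below. The mean was −0.013, with a 95% interval of −0.31 to 0.28 and a limma adjusted p of 0.953. In order of their means, the 10 genes ran from COX5A (1.24) over CYC1, CYC7, PET9, ROX1, AAC1, COX5B, AAC3 and HYP2 to ANB1 (−0.75). The interval of COX5A overlapped that of its neighbor CYC1 only between 0.74 and 0.80, and the intervals of all other neighbors overlapped widely.

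The genes most like each changed gene were taken as the 3 with the smallest Euclidean distance to it over the 6 arrays, among genes with values on all of them. For COX5A these were HMS1 (distance 0.52, culture means 1.60 and 0.76), GSM1 (0.54) and FKS3 (0.57). For HYP2 they were CCW22 (0.13, culture means −0.70 and −0.72), HRP1 (0.16) and EGT2 (0.16). For ANB1 they were CCW22 (0.27), CCW12 (0.31) and YPL251W (0.31). COX5A thus had no gene as close to it as HYP2 had, and the lists of HYP2 and ANB1 shared CCW22. These 6 arrays come from 2 cultures, so a short distance describes likeness of the values only.

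The regulators of the oxygen response, a list of 11, held 0 genes that met the criterion by limma, against 10.5% of all genes tested. Of the list, 1 gene, the corepressor gene CYC8, was below 0.05 before adjustment (mean −0.36, adjusted p = 0.171 from limma). HAP1 had culture means of −0.27 and −0.021, with a mean of −0.15 (adjusted p = 0.489). HAP4, the activating subunit of the CCAAT-binding complex, had −0.45 and −0.12. The list ran from −0.37 for UPC2 to 0.060 for MGA2, and its median was −0.13, against −0.0057 over all genes tested.

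Other hypoxic genes under Rox1, a list of 5, did not share 1 direction. OLE1, the fatty acid desaturase that needs oxygen, rose (0.71 and 0.81, mean 0.76, adjusted p = 0.0361 from limma), and the other 4 did not meet the criterion. HEM13, the oxygen-requiring step of heme synthesis, had 0.20 and 0.91 (mean 0.56, adjusted p = 0.135 from limma), just under 1.5-fold, and met the criterion with scaled or quantile normalized arrays or without the second array of culture 2, when 2 of the 5 genes did. ERG11 (mean −0.28) and SUT1 (mean −0.22) were below 0 on 6 of 6 arrays. The median of the list was 0.29, while COX5B, AAC3 and ANB1, which are also repressed by Rox1, had means from −0.75 to −0.34. CYC7, the remaining hypoxic form of the isoform group, went the other way. Its mean was 0.31, near the median of the list, with culture means of 0.42 and 0.19, and it did not meet the criterion. HMG1 and HMG2 are a further aerobic and hypoxic pair, of the reductase that opens the sterol pathway. HMG1 had culture means of −0.17 and −0.15 and HMG2 had 0.36 and 0.21, and neither met the criterion.

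Among 7 heme-activated genes, 2 rose and none fell by the criterion, against 5.74% higher and 4.74% lower over all genes tested. By culture means, 3 of the 7 were higher in both cultures, 2 lower in both and 2 of opposite sign. CYB2, the lactate dehydrogenase of the intermembrane space, had 2.42 and 1.72 (mean 2.07, adjusted p = 0.016 from limma), and CTT1, the cytosolic catalase, had 1.02 and 0.71 (mean 0.87, adjusted p = 0.0361). CYT1, which encodes cytochrome c1, had 1.15 in culture 1 and 0.078 in culture 2 and did not meet the criterion. Its mean of 0.61 was beyond the fold (adjusted p = 0.191 from limma). With the 6 arrays as replicates, with culture as a random block, or without the third array of culture 2, CYT1 met it, and 3 of the 7 genes did. SOD2, the superoxide dismutase of the matrix, had 0.50 and −0.043. YHB1 (−0.47 and −0.056) and HMG1 (−0.17 and −0.15) were below 0 in both cultures, and NCP1 had −0.13 and 0.035. The median of the list was 0.50 in culture 1 and 0.035 in culture 2, against −0.024 and 0.019 over all genes. Of 7 genes of the anaerobic cell wall and of sterol uptake, 2 rose and none fell by the criterion, and the median was 0.18. Those that rose were the wall protein gene DAN1 (mean 0.59, adjusted p = 0.0744 from limma) and the sterol transporter gene PDR11 (mean 0.83, adjusted p = 0.0343). TIR1, a further wall protein gene, went the other way but missed the fold threshold (mean −0.38, unadjusted p = 0.0433 and adjusted p = 0.159 from limma). By culture means, 5 of the 7 were higher in both cultures, 1 (TIR1) lower in both and 1 of opposite sign. The call of DAN1 was lost without the second array of culture 1, or without the first or the third array of culture 2, when 1 gene of the list met the criterion.

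**Figure D4:**
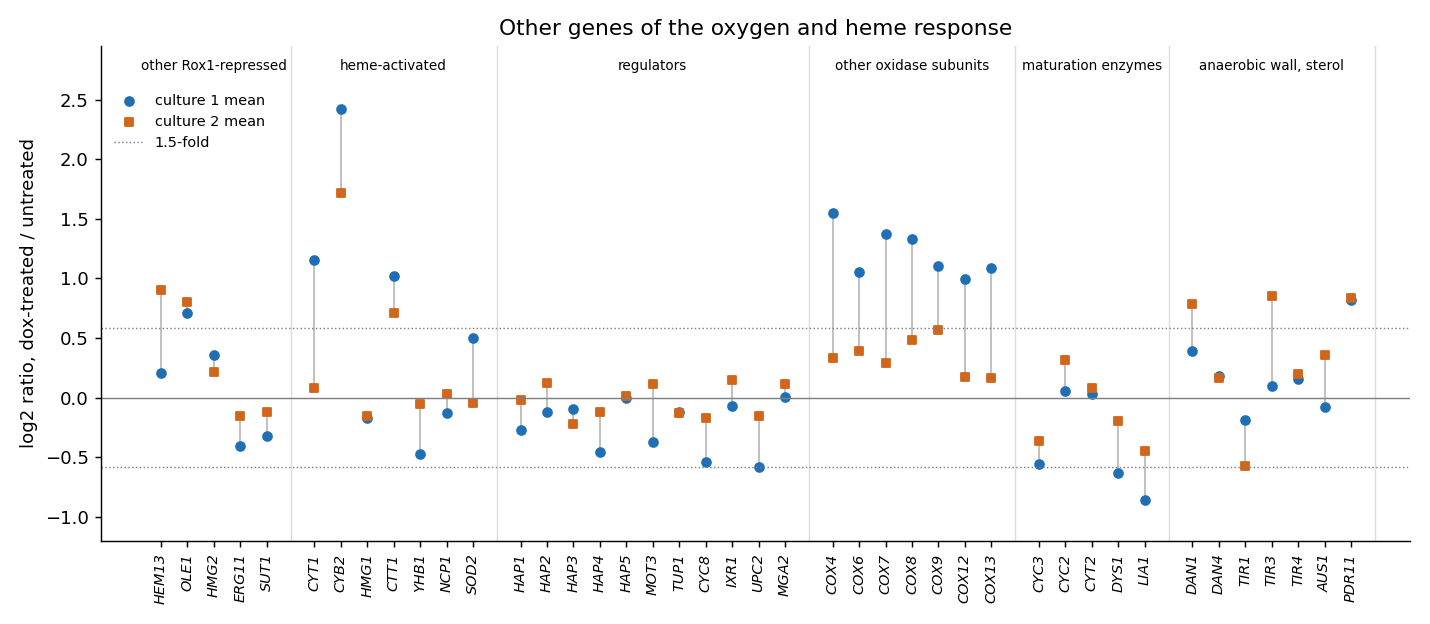
Culture means of the log2 ratio of dox-treated over untreated cells (vertical axis; circles, culture 1; squares, culture 2) for 42 other genes of the oxygen and heme response in 6 lists, with dotted lines at 1.5-fold. All 7 oxidase subunits are above 0 in both cultures and higher in culture 1, the regulators stay within 1.5-fold, and the Rox1-repressed genes lie on both sides of 0.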

How the data were processed

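The authors put both cDNAs of a culture on homemade oligonucleotide arrays, applied LOWESS to each array (GeneSpring GX), and deposited a single value per ORF and array, read here as a log2 ratio. The log base was read from the lowest value, −6.64, the log2 of 0.01, which occurs 10 times, and the direction from the sample titles. Background correction, spot filtering and further centering are not given in the sources used here, and array medians lay between −0.032 and 0.021. Without intensities, precision rests on the number of arrays, and no filter on dim spots was possible. Of 6377 rows, 5840 matched a locus tag of RefSeq R64. Each array had 6180 to 6353 values.

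After averaging the technical arrays, the means of the 2 cultures were set against 0 for 6290 genes. This used lmFit and eBayes of limma 3.58.1 under R 4.3.3. eBayes draws the variance of each gene toward a value shared by all genes. Standard errors, intervals and p from limma therefore do not rest on the 2 cultures of a gene alone. The SD between cultures was 0.52 for COX5A and 0.020 for HYP2, beside limma standard errors of 0.20 and 0.12. The cultures were compared by limma over 3 arrays against 3, for genes with at least 2 values in each. Pair differences were taken within arrays. Both limma tests were checked on simulated data with known changes. For the test of culture means, the simulated spread between cultures was capped below that of the most variable genes. The check therefore does not cover genes such as AAC1, PET9 and COX5A (SD between cultures 0.76, 0.54 and 0.52). The 10 genes, the 6 other lists and the pairs were chosen with earlier results of these data known. Named genes were the 10, HSC82, HSP82, HAP1, HMG1, HMG2, list genes that met the criterion, and the 3 nearest genes of each changed one; other list genes were named after their values had been seen. Alternatives covered the thresholds, the unit of replication, centering, scaling, quantile normalization, complete genes, and each array and culture left out. Tests were two-sided. A search of promoters for motifs was planned but not run, as no sequence was at hand.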

Additional observations from a re-analysis of the deposited data

Results flagged for a closer look

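The ratios of 4 of the 10 genes differed between the cultures by limma over the technical arrays (adjusted p below 0.05 and more than 1.5-fold). Of all 6241 genes compared, 7.35% did. AAC1 was higher in culture 1 by 1.07, PET9 by 0.76 and COX5A by 0.73, and AAC3 had a difference of −0.66. With scaled or quantile normalized arrays, only AAC1 and PET9 still met these thresholds. For AAC1 and PET9 the sign of the log2 ratio was opposite in the cultures on all arrays, while COX5A was above 0 and AAC3 below 0 on all arrays of both. The parts of the isotope label, of the culture and of any difference in day of growth cannot be told apart here.

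Of 32 sets of 6 array values checked for a value far from the rest, 1 stood apart. That is no more often than the rate of about 1 in 20 that chance gives. The difference of CYC1 from CYC7 was −0.64 on the first array of culture 2, and the next lowest value was 0.11. Its cause was not tested.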

How the results depend on the processing

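COX5A, HYP2 and ANB1 met the criterion, and the other 7 genes did not, under all 12 alternatives that changed the unit of replication, the normalization, the genes tested or the arrays. The count of 3 changed genes was 1 at 2-fold and 5 without the fold threshold, when COX5B and AAC3 joined. Without the fold threshold, 1833 of all 6290 genes tested were called, and the share of all genes at 2-fold is not given here. The count was 3 with any single array left out. With a culture left out no p can be had, and by fold alone 4 genes were beyond 1.5-fold in culture 2 and 5 in culture 1. The adjusted p of the 3 genes depended on single arrays and on centering, as given above. Over the 6 other lists together, 12 of 42 genes met the criterion, against 10.5% of all genes tested. This count was 4 with the adjusted p and 1 at 2-fold, and it lay between 11 and 13 with an array left out. By fold alone, with no p, 7 genes of these lists were beyond 1.5-fold in culture 2 and 14 in culture 1. Of the 4 genes that differed between cultures, 2 did so after scaling and 2 after quantile normalization. The mean of ROX1 changed sign with single arrays left out, when it lay between −0.048 and 0.023, and it was −0.062 in culture 2 and 0.036 in culture 1. Pair differences moved by less than the SD between the cultures under every alternative run, which holds by construction when a culture is left out, so that the PET9 and AAC3 difference was 1.40 or −0.016 from either culture alone. Each ratio already paired dox-treated with untreated cells on 1 array. No further paired comparison was possible because all arrays belong to 1 group of ratios. With 2 cultures and 1 dye orientation, dye effects and spot quality could not be examined.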
